A study of Mus musculus with 18 samples.

Results

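Collagens are the triple-helical proteins of the extracellular matrix, and each chain is the product of its own gene. The genes described here are the 44 rows, of 36737 genes in the table, whose symbol has the form Col, a type number, a and a chain number. By type number, 11 were taken as fibrillar, 8 as basement membrane, 9 as network and 16 as other collagens. All 44 had more than 3 counts in at least 1 library, and 2 of them (*Col17a1* and *Col6a4*) had a library at 3 counts or fewer.

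Bulk RNA-seq was made from L3–L5 dorsal root ganglia (DRG), which hold the cell bodies of sensory neurons with their glia, vessels and connective tissue. The mice were adult CD1, an outbred strain with no engineered allele. In the sham group they had sham surgery, and in the fracture group an osteotomy of the tibia over an intramedullary pin, with vehicle and no PDX. The fracture + PDX group had the same fracture and was treated with protectin DX (PDX), a lipid mediator made from docosahexaenoic acid. Fracture tissue was taken on day 3, while the day of the sham mice and the PDX dose of these mice are not given in the sources used here. Each group had 6 mice, 3 males and 3 females, and each mouse gave 1 library with 63235040 to 82824942 counts. Markers of neurons, satellite glia and Schwann cells were present in every group, and no marker list had a gene at 3 counts or fewer in every library. Skeletal muscle markers varied widely, from 11.4 to 1056 CPM summed over 6 genes (CPM, counts scaled to a common library total after TMM correction for composition). Their median was 70.7 CPM in sham, 317 in fracture and 48.4 in fracture + PDX, and none of the 6 genes was called in any comparison of groups. By the fitted change all 6 were higher in fracture than in sham (median 2.12 on the log2 scale) and lower with PDX than in fracture (median -1.95). Among them *Acta1* was set against *Col1a1* across libraries, with the values given among the correlations, and the part of muscle in the other chains was not tested. The 5 cartilage markers summed to 31.7 to 60.2 CPM.

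Fibrillar collagens assemble into the banded fibers that give tissue its tensile strength, and in nerve they fill the sheaths around the fascicles and the space between axons. Basement membrane collagens form sheets around Schwann cells, satellite glia and vessels, which Schwann cells lay down as they wrap axons. Network collagens form microfilaments or lattices between both, and many of the other chains sit on fibril surfaces or span the cell membrane.

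The chains differed far more from each other than the groups did. Collagens took 0.244% to 0.349% of the counts of a library. The median share was 0.334% in sham (0.259% to 0.342%), 0.273% in fracture (0.244% to 0.288%) and 0.268% in fracture + PDX (0.247% to 0.349%). In FPKM, which scales counts by transcript length and depth and so allows levels of different genes to be compared, 11 chains had a mean of 10 or more over the 18 libraries, 16 lay from 1 to 10 and 17 were under 1. Type I collagen, the main fibrillar collagen of most connective tissue, led the list. *Col1a1* had 54.2 ± 6.05 FPKM in sham (SD, n = 6), 45.7 ± 3.12 in fracture and 47.7 ± 7.16 in fracture + PDX. Its partner chain *Col1a2* had 46.2 ± 8.13, 39.5 ± 3.18 and 42.2 ± 6.73 FPKM in the same order. The type IV chains *Col4a1* and *Col4a2*, which make the basement membrane collagen found in almost every tissue, had 37.1 ± 7.16 and 27.7 ± 5.46 FPKM in sham. Between them lay *Col3a1*, the fibrillar chain of distensible tissues, with 29.9 ± 3.64 FPKM in sham. The 5 leading chains together held 51.3% to 58.0% of the summed collagen FPKM of a library.

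**Figure D1:**
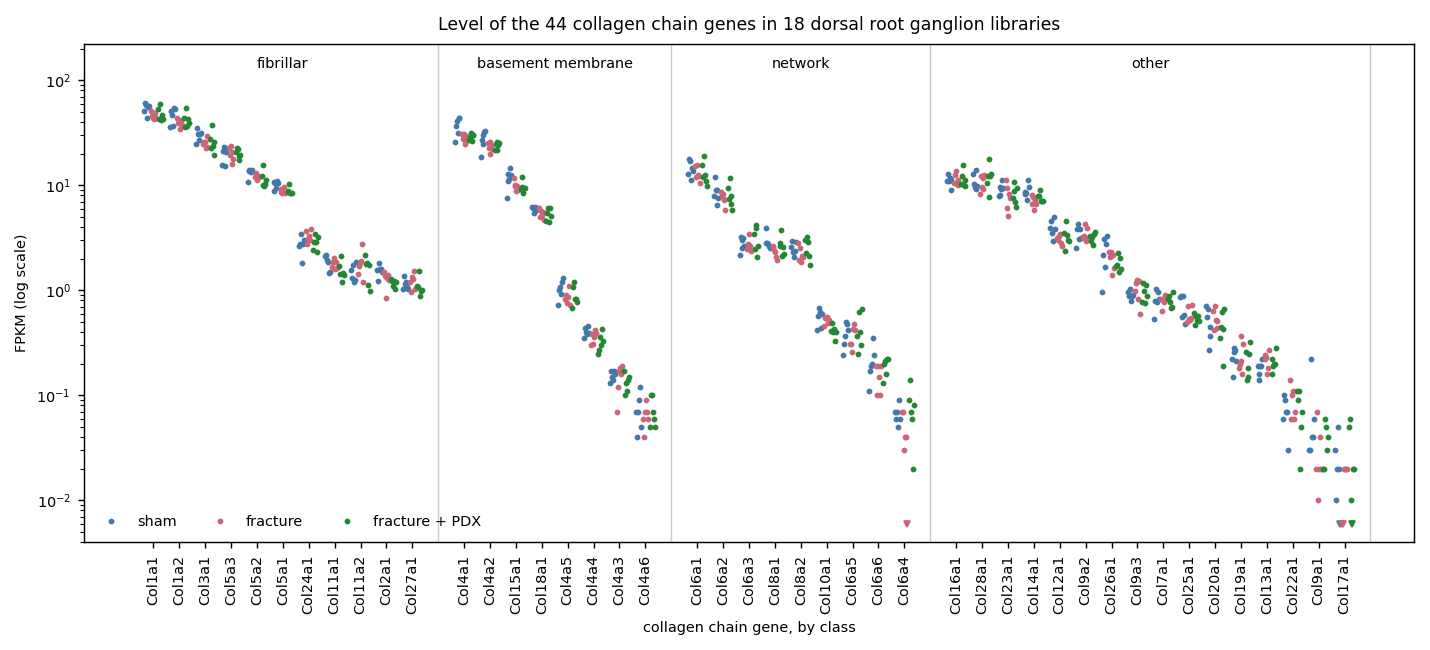
FPKM on a log axis for each of the 44 collagen chains, ordered by level within its class, with 1 point per library and sham, fracture and fracture + PDX side by side. Triangles at the lower edge are libraries listed at 0, and the chains span from *Col1a1* at a mean of 49.2 FPKM to *Col17a1* at 0.0206 FPKM. The 3 groups lie close together in most chains, and less so in the lowest ones.

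Below these came *Col5a3* with 19.8 ± 3.53 FPKM in sham, *Col6a1* with 14.5 ± 2.503 and *Col5a2* with 13.2 ± 1.24. Type V chains co-assemble with type I and III and limit the width of their fibrils, and type VI forms beaded filaments around cells. *Col15a1*, a basement membrane zone collagen, had 11.7 ± 2.35 FPKM, the fibril-associated chain *Col16a1* had 11.1 ± 1.25 and *Col5a1* had 10.2 ± 0.893. *Col28a1*, a chain known from peripheral nerve, where it lies around non-myelinated parts of Schwann cells, had 10.9 ± 1.94 FPKM and so ranked with the type V and VI chains. Neighbors in this order of 12 had overlapping ranges over the sham libraries in all 11 pairs. Within single libraries the top of the order was nevertheless fixed, since *Col1a1* was above *Col1a2*, and *Col1a2* above *Col4a1*, in 18 of 18 libraries. *Col4a1* was above *Col3a1* in 16 of 18 libraries, while *Col16a1* was above *Col28a1* in 9 of 18.

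Several chains known from other tissues had low levels. *Col2a1*, the fibrillar collagen of cartilage, had 1.54 ± 0.190 FPKM in sham. *Col10a1*, the network collagen of growth plate cartilage, had a mean of 0.495 FPKM over the libraries. The kidney and lung type IV chains *Col4a3* and *Col4a4* had means of 0.145 and 0.362 FPKM. *Col9a1*, a cartilage chain, had 6 to 90 counts per library, and *Col17a1*, the collagen of epithelial hemidesmosomes, had 0 to 32. Not every such chain was as low, since *Col9a2*, another type IX chain, had a mean of 3.37 FPKM and *Col11a1*, also of cartilage, 1.73. *Col25a1*, a collagen of neurons, lay among the low chains at 0.612 FPKM. Fibrillar chains held 51.7% ± 1.12 of the summed collagen FPKM in sham, 52.4% ± 1.09 in fracture and 52.0% ± 1.61 in fracture + PDX (SD, n = 6). For basement membrane chains the shares were 23.8% ± 2.25, 22.2% ± 0.414 and 22.03% ± 1.97, and for network chains 9.25% ± 0.997, 9.40% ± 0.778 and 9.69% ± 1.38. The class shares of the 3 groups differed by less than 1 SD of the most variable group.

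Several chain pairs that form one molecule also lie next to each other in the genome. In the deposited annotation *Col4a1* (chr8:11198423-11312826, minus strand) and *Col4a2* (chr8:11312805-11449287, plus strand) stand head to head, and their starts overlap by 22 bases. *Col4a4* (chr1:82448423-82586849, minus strand) and *Col4a3* (chr1:82586921-82722059, plus strand) stand head to head with 71 bases between them, and *Col4a6* and *Col4a5* on chromosome X with 1308 bases between them. *Col6a2* and *Col6a1* lie in tandem on chromosome 10 with 85161 bases between them. The first 2 shared starts are shown because their chain pairs are compared next, read on the plus strand from RefSeq windows of GRCm38.p6, with capitals marking a GC box (GGGCGG or its reverse complement).
*Col4a1* and *Col4a2*, chr8:11312805-11312826: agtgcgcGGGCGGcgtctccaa
*Col4a4* and *Col4a3*, chr1:82586850-82586920: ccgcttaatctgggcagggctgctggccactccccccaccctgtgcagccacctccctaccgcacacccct

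*Col4a1* and *Col4a2* followed each other closely across libraries. On log2 CPM, with the mean of its group taken from each of 18 libraries, Pearson's r was 0.99 and Spearman's rho 0.96 (permutation p = 1e-05 for each, the smallest that 100000 permutations can give, and 4e-05 and 6e-05 adjusted over 12 pairs). With the pair of libraries left out whose *Col4a1* lay farthest from the median, r was 0.97. *Col4a3* and *Col4a4*, which share a start region in the same way, gave r = 0.37 and rho = 0.33 (permutation p = 0.13 and 0.19, adjusted 0.20 and 0.26). That r fell to 0.09 without the 2 farthest libraries and so rests on them. Within groups it was 0.92 in sham, 0.53 in fracture and 0.12 in fracture + PDX, beside 0.99, 0.99 and 0.94 for *Col4a1* and *Col4a2*. *Col4a3* is overlapped over 30132 bases by C430014B12Rik on the other strand, with up to 24 counts beside 61 or more for *Col4a3*, so its values are uncertain. For the lowest pair, *Col4a5* and *Col4a6*, r was 0.31 and rho 0.32 (permutation p = 0.21 and 0.20, adjusted 0.27 and 0.26). *Col4a3* had 61 to 164 counts per library and *Col4a6* 26 to 87, so counting error is a larger part of their spread than for *Col4a1* with 15666 to 28761 counts.

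The chains of type VI and type I collagen were also tied. *Col6a1* and *Col6a2* gave r = 0.95 and rho = 0.92 (permutation p = 1e-05 for each, adjusted 4e-05 and 6e-05), and *Col6a1* with *Col6a3*, the third chain of the filament, r = 0.66 and rho = 0.72 (permutation p = 0.0028 and 0.001, adjusted 0.0068 and 0.0024). *Col1a1* with *Col1a2* gave r = 0.85 and rho = 0.83 (permutation p = 1e-05 and 8e-05, adjusted 4e-05 and 0.00024), and *Col1a1* with *Col3a1* r = 0.80 and rho = 0.84 (permutation p = 0.00015 and 6e-05, adjusted 0.00045 and 0.00024). Without the 2 farthest libraries these pairs kept r of 0.93, 0.59, 0.76 and 0.74. *Col1a1* also rose and fell with *Dcn*, the fibroblast proteoglycan decorin (r = 0.65, rho = 0.60, permutation p = 0.0034 and 0.0093, adjusted 0.0068 and 0.019), with r = 0.50 without the 2 farthest libraries. It was not shown to follow *Bglap*, a bone gene (r = 0.26, rho = 0.29, permutation p = 0.30 and 0.24, adjusted 0.36 and 0.27), or *Acta1*, a skeletal muscle gene (r = 0.23, rho = 0.07, permutation p = 0.35 and 0.78, adjusted 0.38 and 0.78). The cartilage pair *Col2a1* and *Col9a1* gave r = 0.50 and rho = 0.35 (permutation p = 0.039 and 0.15, adjusted 0.067 and 0.26), and *Col2a1* with *Acan* r = 0.17 and rho = 0.29 (permutation p = 0.50 and 0.24, adjusted 0.50 and 0.27). Without the 2 farthest libraries r was 0.27 for *Col4a5* and *Col4a6*, 0.32 for *Bglap*, -0.11 for *Acta1*, 0.34 for *Col9a1* and 0.14 for *Acan*.

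**Figure D2:**
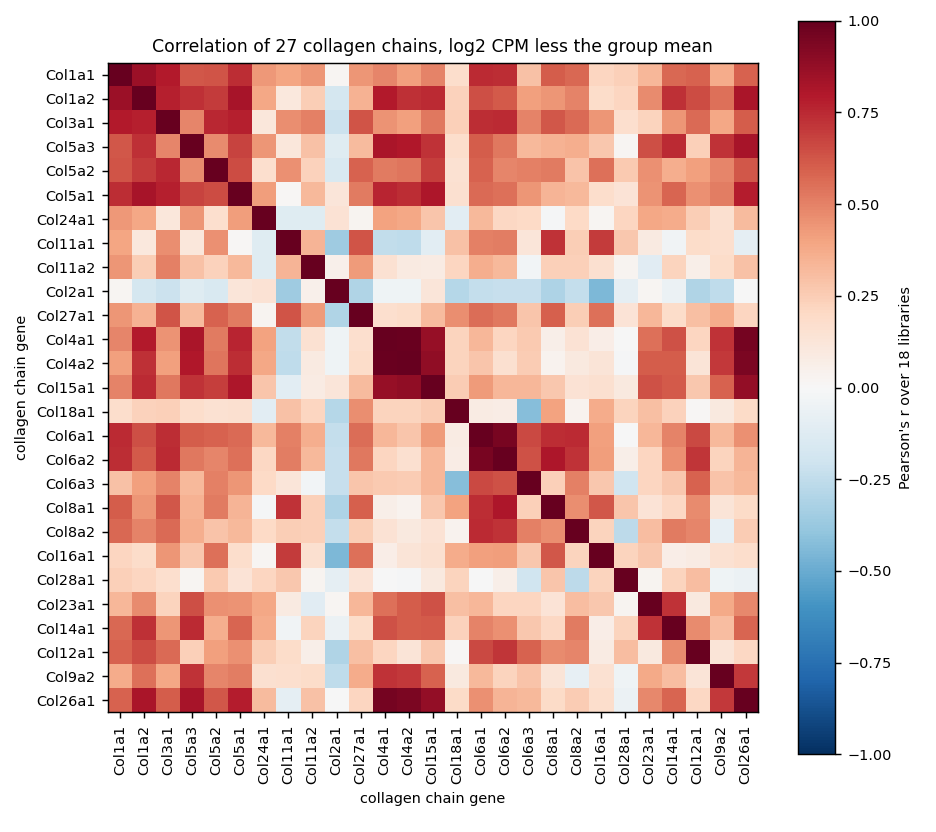
Pearson's r between every pair of the 27 collagen chains at 1 FPKM or more, over 18 libraries on log2 CPM less the group mean, ordered by class. The median of the 351 pairs is 0.32, with high r among *Col1a1*, *Col1a2*, *Col3a1* and *Col5a1*, among *Col4a1*, *Col4a2*, *Col15a1* and *Col26a1*, and between *Col6a1* and *Col6a2*, while *Col2a1* is near or below 0 with most chains.

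Further pairs were computed after the correlations had been seen, and are given with no test. *Col4a1* had r = 0.87 and rho = 0.78 with *Col15a1*, and r = 0.96 and rho = 0.94 with *Col26a1*. *Col25a1*, a membrane-spanning collagen of neurons, had r = -0.70 and rho = -0.74 against *Col4a1*. Within groups that r was -0.83 in sham, -0.46 in fracture and -0.09 in fracture + PDX, and it was -0.59 without the 2 farthest libraries, so the pooled value is carried mainly by sham. Both axes of each pair come from the same library, and share its depth and its makeup of cells. Sham female1 had the lowest *Col26a1*, at 8.58 CPM against 12.8 to 29.9 in the others, and the lowest *Col4a2*, at 133 CPM.

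Against that tight pairing, the ratio of *Col4a1* to *Col4a2* did not overlap between the sham libraries and those of either fracture group. In CPM the ratio ran from 1.44 to 1.58 in the 6 sham libraries, from 1.35 to 1.41 in fracture and from 1.32 to 1.42 in fracture + PDX. Every sham library lay above every fracture library and every fracture + PDX library. The difference of the mean log2 ratio was -0.14 in fracture against sham and -0.14 in fracture + PDX against sham, each with p = 0.0022 (two-sided exact permutation test, n = 6 per group, the smallest p it can give). Adjusted over the 18 tests of 6 partner pairs in 3 comparisons, both had p = 0.0195 (exact permutation test), and both comparisons use the same sham libraries. Between fracture + PDX and fracture the difference was -0.002 (exact permutation test, p = 0.909). The ratio was tested after its values had been seen, so neither the exact nor the adjusted p accounts for that choice. Among all 351 pairs of chains at 1 FPKM or more, the ratio did not overlap between fracture and sham in 3 (0.855%), and between fracture + PDX and sham in 2 (0.57%). The other 5 partner ratios tested, *Col1a1* to *Col1a2*, *Col6a1* to *Col6a2*, *Col6a1* to *Col6a3*, *Col4a4* to *Col4a3* and *Col8a1* to *Col8a2*, had adjusted p of 0.341 or more in every comparison (exact permutation test). The ratios of *Col4a5* to *Col4a6* and of *Col9a2* to *Col9a1* were computed but not tested.

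**Figure D3:**
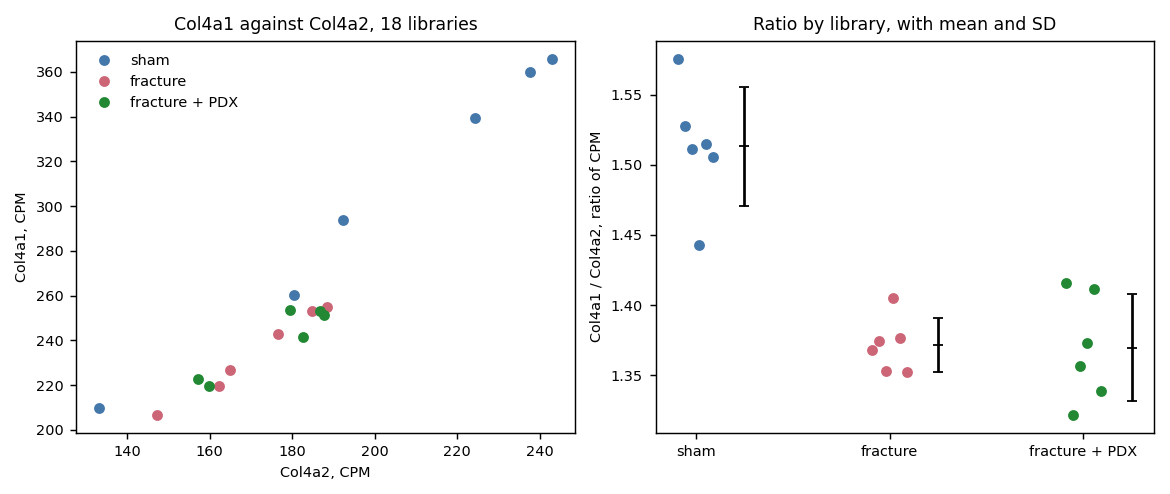
Left, CPM of *Col4a1* against CPM of *Col4a2* in each of 18 libraries, by group; right, their ratio by library with the group mean and SD, on an axis that does not start at 0. The 6 sham ratios, from 1.44 to 1.58, sit above all 12 others, which end at 1.42.

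The first comparison asked what a tibial fracture left in the lumbar ganglia on day 3. Collagens were mostly a little lower. By the fitted change 32 of the 43 chains tested were lower in fracture (74.4%), where 49.3% of all 20659 genes tested were lower, and the median log2 fold change of the chains was -0.15 beside 0.002 for all genes. A single chain, *Col8a1*, passed the adjusted threshold, where 2.92% of all genes did and 1.83% were called lower. At an unadjusted p under 0.05 there were 8 chains, all lower, which is 18.6% of the chains beside 18.5% of all genes. No chain had groups that did not overlap, while 2.49% of all genes had. In bulk RNA, fewer cells of a type and less RNA per cell cannot be told apart.

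*Col8a1*, a short-chain network collagen of vessel walls and of the membrane behind the cornea, had 22.1, 23.8 and 32.9 CPM in sham (lowest, median and highest library), 17.03, 20.5 and 22.7 in fracture, and 18.4, 22.96 and 31.8 in fracture + PDX. Of the 6 sham libraries 5 lay above every fracture library, and 5 of the 6 fracture libraries lay below every sham library. The log2 fold change was -0.32 ± 0.08 (SE), with a 95% interval of -0.48 to -0.15 and an adjusted p of 0.0418 (edgeR). The call was kept in 3 of 12 fits with 1 library left out, those without sham female1, sham female3 or fracture male1, with values between -0.36 and -0.25 and adjusted p of 0.0321 to 0.0922 over the 12. It was kept in 5 of 9 other settings, with adjusted p from 0.0040 to 0.10. In sham, female2 stood apart at 32.9 CPM, and without it the log2 fold change was -0.25 and the call was lost.

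The upstream bases of *Col8a1* are shown with those of *Col5a1*, the chain with the next smallest p, as the last 100 bases before each RefSeq start (GRCm38.p6), 5′ to 3′ on the strand of the gene, with GC boxes in capitals. Neither stretch holds TATAAA or CCAAT.
*Col8a1*, chr16:57754738-57754837, minus strand: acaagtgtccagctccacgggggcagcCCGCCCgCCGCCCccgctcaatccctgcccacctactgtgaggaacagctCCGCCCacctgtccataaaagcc
*Col5a1*, chr2:27886325-27886424, plus strand: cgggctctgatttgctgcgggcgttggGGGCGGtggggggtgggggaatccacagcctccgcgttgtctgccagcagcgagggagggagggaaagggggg

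RefSeq windows were matched for 35 chains, and in 31 the start lay within 300 bases of the deposited one. In the 250 bases before the start, on either strand, 17 of these 31 held a GC box (GGGCGG, 54.8% beside 32.7% of 32851 promoters), 9 held CCAAT (29.0% beside 33.8%) and 5 held TATAAA (16.1% beside 12.4%). Their median GC content was 58.8%, from 35.2% to 76.4%, beside 52.4% for all promoters.

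Fibrillar chains were lower in 7 of 11, with a median log2 fold change of -0.11. *Col1a1* had 318, 409 and 429 CPM in sham and 310, 327 and 364 in fracture (log2 fold change -0.23 ± 0.07, adjusted p = 0.0948). *Col5a1* had 80.7, 99.6 and 105 CPM in sham and 79.6, 81.7 and 91.2 in fracture (-0.19 ± 0.06, adjusted p = 0.0924). In both chains 4 sham libraries lay above every fracture library and the others overlapped. *Col3a1* had 260, 334 and 371 CPM in sham and 248, 273 and 318 in fracture (-0.23 ± 0.09, adjusted p = 0.182), and *Col1a2* 485, 663 and 747 against 477, 546 and 595 (-0.22 ± 0.12, adjusted p = 0.358). The type V chain *Col5a3* went with neither, at 114, 157 and 176 CPM in sham and 122, 152 and 179 in fracture (0.03 ± 0.13, adjusted p = 0.932).

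All 8 basement membrane chains had a negative fitted change, with a median of -0.19, and none passed the adjusted threshold in edgeR. *Col4a1* had 210, 316 and 366 CPM in sham, 207, 235 and 255 in fracture, and 220, 246 and 253 in fracture + PDX. The fitted change in fracture was -0.38 ± 0.13 (adjusted p = 0.164), with 5 sham libraries above every fracture library and sham female1 at 210 CPM near the lowest of the fracture libraries. Without sham female1 *Col4a1* was among the 4 chains called (*Col5a2*, *Col5a1*, *Col4a1* and *Col8a1*), in a fit that called 372 of all 20921 genes in place of 603 of 20659. *Col4a2* had 133, 208 and 243 CPM in sham and 147, 171 and 188 in fracture (-0.23 ± 0.14, adjusted p = 0.417). *Col18a1*, whose end is released as endostatin, had 43.01, 46.8 and 48.6 CPM in sham and 37.0, 42.2 and 46.7 in fracture (-0.15 ± 0.05, adjusted p = 0.165). Beside these chains, all 5 Schwann cell markers were lower in fracture by the fitted change and none was called. Of 5 endothelial markers 3 were lower and 2 higher, with a summed level of 83.7 to 107 CPM in sham and 74.7 to 89.9 in fracture. Among them *Cdh5* was called lower (-0.73 ± 0.12, adjusted p = 0.0117), with 26.6 to 43.5 CPM in sham and 19.3 to 25.6 in fracture. The part of these cell types in the collagen values was not tested.

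**Figure D4:**
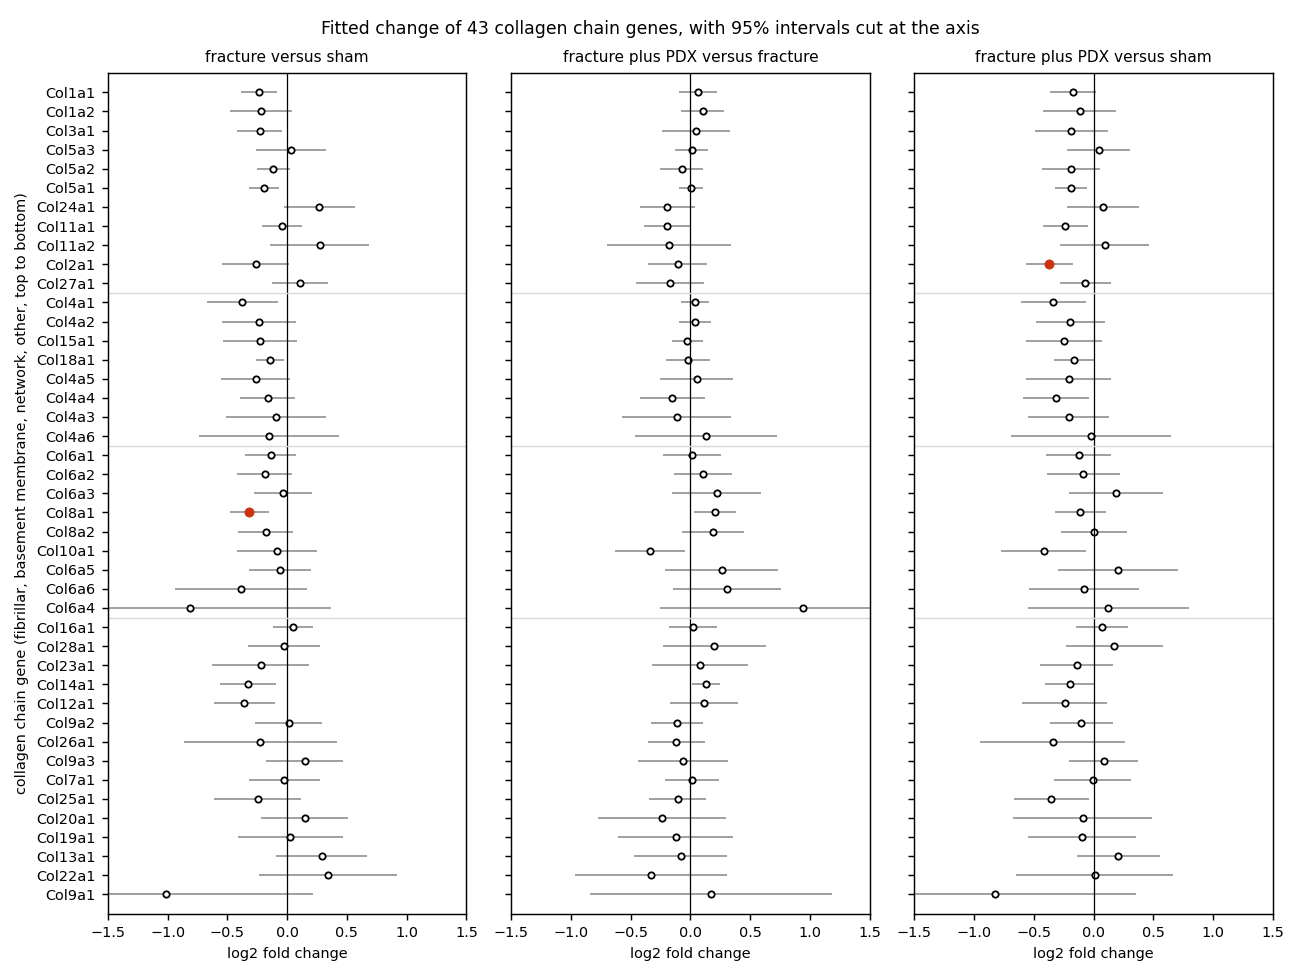
Fitted log2 fold change with its 95% interval for 43 collagen chains in the 3 comparisons of groups, by class and level, with filled red points for an adjusted p under 0.05. In fracture versus sham 32 of 43 points lie below 0 and the red point is *Col8a1*; in fracture plus PDX versus sham 31 of 43 lie below 0 and the red point is *Col2a1*; in fracture plus PDX versus fracture none is red.

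Network chains were lower in 9 of 9 with a median of -0.18, and other chains in 8 of 15 with a median of -0.02. Among the other chains, the fibril-associated *Col12a1* and *Col14a1* had the smallest p. *Col14a1* had 56.3, 65.4 and 87.1 CPM in sham and 45.8, 53.8 and 62.5 in fracture (-0.33 ± 0.11, adjusted p = 0.125). *Col12a1* had 49.7, 64.2 and 84.6 against 44.6, 51.9 and 57.6 (-0.36 ± 0.12, adjusted p = 0.126). With DESeq2 5 chains were called, all lower: *Col1a1*, *Col5a1*, *Col8a1*, *Col12a1* and *Col14a1*. DESeq2 also called 1511 of all 20659 genes, 905 of them lower. All 5 fibroblast markers were lower in fracture by the fitted change, and 1 of them, *Dcn*, was called (-0.33 ± 0.07, adjusted p = 0.0331, edgeR). Their summed level was 663 to 850 CPM in sham and 538 to 669 in fracture, and their part in these values was not tested.

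The type VI chains and several other leading chains were not called, and their groups overlapped widely. *Col6a1* had 54.4, 68.6 and 84.2 CPM in sham, 51.9, 60.2 and 75.7 in fracture and 47.9, 60.0 and 90.5 in fracture + PDX. Its fitted change in fracture was -0.14 (95% interval -0.35 to 0.07), that of *Col6a2* -0.19 (-0.42 to 0.04) and that of *Col6a3* -0.04 (-0.28 to 0.21). *Col28a1* had 49.99, 54.1 and 75.4 CPM in sham, 44.6, 57.9 and 69.2 in fracture and 42.1, 67.6 and 95.9 in fracture + PDX, whose libraries lay on both sides of all others. Its change was -0.03 (-0.33 to 0.28) in fracture and 0.20 (-0.23 to 0.63) with PDX against fracture. *Col15a1* had 52.1, 84.6 and 103 CPM in sham, 62.9, 69.2 and 81.4 in fracture and 59.4, 67.2 and 82.4 in fracture + PDX, so its sham libraries lay on both sides of the others. Its change was -0.23 (-0.54 to 0.09) in fracture. *Col16a1* had a change of 0.05 (-0.12 to 0.22) in fracture and 0.02 (-0.18 to 0.22) with PDX against fracture. *Col5a2* had -0.11 (-0.25 to 0.02) in fracture, with sham female1 at 111 CPM and the other sham libraries from 141 to 151.

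The second comparison, fracture + PDX against fracture, asked what PDX changed after the fracture. No collagen chain was called of 44 tested, as no gene was of 20562 (edgeR, 0.0%), and DESeq2 called 15 of all genes and none of the chains. By the fitted change 19 of the chains were lower with PDX and 25 higher, beside 50% of all genes lower. At an unadjusted p under 0.05 there were 4 chains, 9.09% beside 5.41% of all genes, and 2 were higher and 2 lower. *Col8a1* was higher with PDX by 0.21 ± 0.08 on the log2 scale (adjusted p = 0.887), and *Col14a1*, at 54.9, 58.8 and 68.6 CPM with PDX, by 0.13 ± 0.05 (adjusted p = 0.893). The cartilage chains *Col10a1* and *Col11a1* had -0.34 ± 0.14 (adjusted p = 0.887) and -0.20 ± 0.09 (adjusted p = 0.912). *Col10a1* had 1.58, 1.86 and 1.94 CPM in fracture and 1.18, 1.42 and 1.74 with PDX, and 5 of the 6 PDX libraries lay below every fracture library. Its gene is overlapped over its whole length by *Nt5dc1* on the other strand, and whether counting used strand is not given in the sources used here. In all 44 chains the groups overlapped, and 0.277% of all genes had groups that did not. The change of 30 of 44 chains had a 95% interval within 0.5 of 0. Among the leading chains, *Col1a1* had an interval of -0.10 to 0.22, *Col1a2* of -0.07 to 0.28 and *Col4a1* of -0.08 to 0.16. The smallest of the remaining p belonged to *Col24a1*, a minor fibrillar chain (-0.19 ± 0.10), and *Col6a4*, an alternative type VI chain with few counts (0.94 ± 0.55), both with an adjusted p of 0.917.

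**Figure D5:**
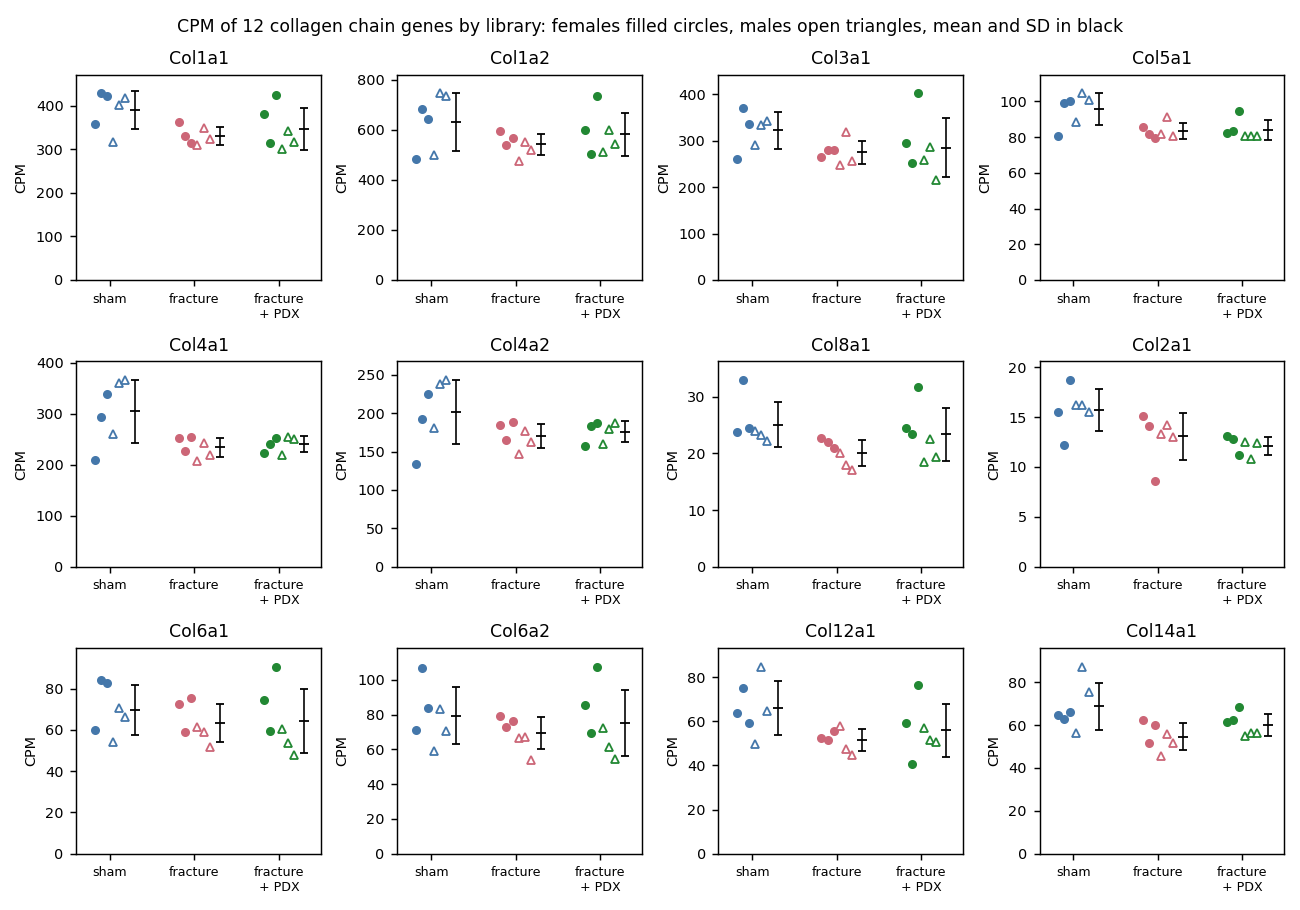
CPM of 12 collagen chains in every library by group, with females as filled circles, males as open triangles and the mean and SD in black, on axes from 0. In *Col8a1*, 5 of 6 sham libraries lie above all fracture libraries, in *Col4a1* the sham libraries spread from 210 to 366 while fracture ends at 255, and in *Col6a1* and *Col6a2* the females lie higher than most males.

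Fracture + PDX against sham, which uses the same sham libraries, gave 31 of 43 chains lower (72.1% beside 50.4% of 20574 genes), with a median log2 fold change of -0.12 beside -0.001 for all genes. By class, 8 of 11 fibrillar, 8 of 8 basement membrane, 5 of 9 network and 10 of 15 other chains were lower. Beside these chains, all 5 fibroblast markers were lower by the fitted change and none was called, with a summed level of 483 to 676 CPM with PDX and 663 to 850 in sham. All 5 endothelial markers were lower, at 70.9 to 86.0 against 83.7 to 107 CPM, and *Cdh5* was called (-0.74 ± 0.10, adjusted p = 0.0022). All 5 Schwann cell markers were lower and *Sox10* was called (-0.15 ± 0.04, adjusted p = 0.0483). The part of these cell types in the collagen values was not tested. At an unadjusted p under 0.05 there were 7 chains, all lower, which is 16.3% beside 18% of all genes. No chain had groups that did not overlap, beside 2.97% of all genes. A single chain was called, where 4.5% of all genes were and 2.32% were called lower. This was *Col2a1*, with 12.2, 15.8 and 18.7 CPM in sham, 8.57, 13.7 and 15.1 in fracture, and 10.8, 12.4 and 13.1 in fracture + PDX. Of the 6 sham libraries 5 lay above every PDX library, while sham female2, at 12.2 CPM, lay within the PDX range. The log2 fold change was -0.37 ± 0.09, with a 95% interval of -0.57 to -0.18 and an adjusted p of 0.0361. In fracture against sham the same chain had -0.26 ± 0.13 (adjusted p = 0.296), and in fracture + PDX against fracture -0.11 ± 0.11 (adjusted p = 0.9755). The call was kept in 1 of 12 fits with 1 library left out, the fit without sham female2, with adjusted p from 0.0089 to 0.081 over the 12, and in 5 of 9 other settings (adjusted p from 0.0039 to 0.0974). *Acan*, the cartilage proteoglycan, was also called (-2.05 ± 0.32, adjusted p = 0.00431), at 1.35, 2.31 and 4.51 CPM in sham and 0.391, 0.713 and 1.01 with PDX. Of the 5 cartilage markers 3 were tested, 2 of them were lower, and their summed level was 36.7 to 46.0 CPM in sham and 38.8 to 51.4 with PDX.

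The next smallest p in that comparison were those of *Col5a1* (-0.19 ± 0.06, adjusted p = 0.123), *Col11a1* (-0.24 ± 0.09, adjusted p = 0.160), *Col4a1* (-0.34 ± 0.12, adjusted p = 0.174), *Col10a1* (-0.42 ± 0.17, adjusted p = 0.194) and *Col25a1* (-0.35 ± 0.15, adjusted p = 0.215). *Col5a1* had 80.7, 81.7 and 94.9 CPM with PDX, and *Col11a1* 20.7, 27.3 and 30.2 in sham and 17.1, 20.96 and 29.1 with PDX. Without sham female1, *Col5a1* and *Col4a1* were the 2 chains called, in a fit that called 741 of all 20775 genes in place of 925 of 20574. *Col8a1*, called in fracture, had -0.11 ± 0.10 here, and its sham and PDX libraries overlapped from 22.1 to 31.8 CPM.

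Females and males were compared over all groups. Over 18 libraries with the group in the model, 31 of 43 chains were higher in females by the fitted change (72.1% beside 50.5% of 20527 genes), with a median of 0.07 beside 0.001. All 6 skeletal muscle markers were also higher in females (median log2 fold change 1.27), as were all 5 bone markers (0.42). Of 5 fibroblast markers 4 were higher (median 0.14). All 5 Schwann cell markers and 5 of 6 neuron markers were lower (medians -0.07 and -0.01). None of these markers was called, and their part in the collagen values was not tested. No chain was called in edgeR, where 0.297% of all genes were, while DESeq2 called 4, all higher in females (*Col6a1*, *Col6a2*, *Col8a1* and *Col11a1*), and 330 of all genes. At an unadjusted p under 0.05 there were 9 chains, 20.9% beside 10.4% of all genes, with 7 higher and 2 lower in females. *Col8a1* had 20.95, 23.8 and 32.9 CPM in females and 17.03, 20.1 and 23.9 in males (0.30 ± 0.07, adjusted p = 0.0900). In fracture its 3 females had 20.95, 21.99 and 22.7 CPM and its 3 males 17.03, 17.9 and 20.1. With PDX the females were also above the males, at 23.4, 24.5 and 31.8 against 18.4, 19.4 and 22.5 CPM. In sham the sexes overlapped, at 23.8, 24.5 and 32.9 CPM in females and 22.1, 23.2 and 23.9 in males. The type VI chains followed, with *Col6a2* at 69.5, 79.1 and 107 CPM in females against 53.8, 66.5 and 83.2 in males (0.35 ± 0.10, adjusted p = 0.163), and *Col6a1* at 58.9, 74.4 and 90.5 against 47.9, 58.9 and 70.7 (0.33 ± 0.09, adjusted p = 0.168). *Col11a1*, a fibrillar chain of cartilage, had 20.7, 27.9 and 30.2 CPM in females and 17.1, 21.2 and 26.6 in males (0.27 ± 0.07, adjusted p = 0.118). Females and males overlapped in each of these chains, and 0.0974% of all genes had sexes that did not. *Col22a1*, a chain of tissue junctions, had a fitted change of 0.63 ± 0.24 (adjusted p = 0.336), and *Col6a5*, an alternative type VI chain, one of -0.46 ± 0.16 (adjusted p = 0.295).

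The effect of fracture was not shown to differ between the sexes in any chain. The smallest adjusted p of the interaction was 0.720 over 43 chains for fracture and 0.998 over 44 chains for PDX (edgeR), none of the chains had an unadjusted p under 0.05, and DESeq2 called none. Among all genes 7.2% and 4.14% had an unadjusted p under 0.05, and 0.0% and 0.00486% were called. With 3 mice per sex and group the intervals were wide, and those of 8 and 11 chains lay within 0.5 of 0 on the log2 scale.

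Genes that handle collagen were read from 6 lists of 63 genes, 62 of them tested. The lists were chosen with earlier results of these data known, so their shares beside all genes are description and no test. In fracture against sham 9 were called lower and 1 higher, where 2.92% of all genes were called and 1.83% called lower. By the fitted change 48 of 62 were lower, with a median of -0.17, beside 49.3% of all genes. Of 17 genes of folding and export 4 were called, all lower. *Serpinh1*, the chaperone of the collagen triple helix, had 135, 140 and 154 CPM in sham and 97.2, 101 and 120 in fracture, with no overlap (-0.45 ± 0.05, adjusted p = 0.0021). *P4ha1*, a subunit of prolyl hydroxylase, had 59.8, 73.4 and 80.4 against 52.6, 56.9 and 62.0 CPM (-0.35 ± 0.06, adjusted p = 0.0094). Lysyl hydroxylase *Plod2* (-0.36 ± 0.08, adjusted p = 0.0329) and prolyl hydroxylase *P3h2* (-0.49 ± 0.11, adjusted p = 0.0329) were the others. Of 17 tested fibril-binding matrix genes 4 were called, all lower. These were *Fn1* (fibronectin, -0.54 ± 0.09, adjusted p = 0.0149), *Emilin1* (an elastic fiber glycoprotein, -0.85 ± 0.12, adjusted p = 0.0071), *Dcn* (-0.33 ± 0.07, adjusted p = 0.0331) and *Prelp* (-0.43 ± 0.09, adjusted p = 0.0268). Of 6 breakdown genes the gelatinase *Mmp2* was called lower (-0.32 ± 0.07, adjusted p = 0.0295). Of 5 cross-linking enzymes *Loxl4* rose, from 3.43, 4.02 and 4.46 CPM to 4.49, 6.24 and 7.44 with no overlap (0.59 ± 0.13, adjusted p = 0.0313). None of the 10 receptors and 7 genes of propeptide removal was called.

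In fracture + PDX against fracture none of the 62 genes was called, with 32 lower and a median of -0.003. In fracture + PDX against sham 9 were called lower and 1 higher, where 4.5% of all genes were called and 2.32% called lower. *Serpinh1* had 95.8, 106 and 117 CPM with PDX (-0.42 ± 0.04, adjusted p = 0.00046), and *P4ha1*, *P4ha2*, *Plod2*, *P3h2*, *Fn1*, *Emilin1* and the collagen receptors *Ddr1* and *Itga1* were the other lower genes, between -0.59 and -0.18. *Loxl4* was again the gene that rose (0.57 ± 0.12, adjusted p = 0.0206). Between females and males none was called. In both comparisons with sham, all 6 neuron markers had a positive fitted change, and *Tubb3* and *Uchl1* were called in each. Their summed level was 7673 to 8207 CPM in sham, 8531 to 8708 in fracture and 8237 to 9034 in fracture + PDX. *Tubb3*, a neuronal tubulin, had 2340, 2464 and 2594 CPM in sham and 2656, 2762 and 2829 in fracture (0.17 ± 0.03, adjusted p = 0.0126). The part of this in the lower values of collagens and their partners was not tested.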

How the data were processed

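The members and lists were chosen with earlier results of these data known. Per the labels, poly(A) RNA was made into TruSeq stranded libraries, which per the study's methods were sequenced on an Illumina NovaSeq. The submitters' processing notes name cutadapt 1.10, FastQC, HISAT2, StringTie and mm10. The counting program, its strand setting and the annotation release are not given in the sources used here. The authors deposited raw read counts per gene and FPKM per gene for the 18 libraries, the latter rounded to a fixed number of decimals, which makes the FPKM of the lowest chains coarse. Columns headed Con were read as the sham mice of the same sex and number.

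The count model was edgeR 4.0.16 under R 4.3.3 (filterByExpr by group with a minimum count of 10 and a total of 15, TMM scaling, robust quasi-likelihood tests), with sex and group in the model. The 12 libraries of each comparison were fitted, and all 18 for the sexes. Adjusted p-values are Benjamini-Hochberg values across the genes of each fit, with a threshold of 0.05. DESeq2 1.42.0 and limma 3.58.1 on log2(FPKM + 1) and log2(FPKM + 0.1) were alternatives. Log2 CPM used a prior count of 2. Fold changes are given with SE, group values in CPM as lowest, median and highest library, and levels in FPKM as mean ± SD. Labels number the mice within a sex and group, and p-values measure the spread between these mice. No 2 libraries were identical. On simulated fracture and sham counts of 20274 genes, the fit called 14.9% of genes changed 1.2-fold, 49.3% of those changed 1.5-fold and 63.6% of those changed 2-fold.

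Named chains are those called in any comparison, the 6 with the smallest p in each, the 12 highest in mean FPKM, and *Col1a1*, *Col1a2*, *Col2a1*, *Col3a1*, *Col4a1*, *Col4a2*, *Col5a1*, *Col5a2*, *Col5a3*, *Col6a1*, *Col6a2*, *Col6a3*, *Col15a1*, *Col18a1* and *Col28a1*. *Col26a1*, *Col9a2*, the lowest chains and the neighbors in the genome were named after their values were seen. Genes overlap 22 of the 44 chains.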

Additional observations from a re-analysis of the deposited data

Results flagged for a closer look

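In 78 groups of 6 libraries, those of 26 named chains in 3 groups, 5 had a library whose gap to its nearest neighbor was past Dixon's 95% limit on log2 CPM, and chance alone flags about 1 in 20 groups. *Col5a2* was at 111 CPM in sham female1, with the other sham libraries from 141 to 151. *Col5a1* was at 94.9 CPM in fracture + PDX female3, with the others from 80.7 to 83.4. *Col8a1* was at 32.9 CPM in sham female2, above the others at 22.1 to 24.5, and without that library its log2 fold change in fracture was -0.25 and no chain was called. *Col2a1* was at 8.57 CPM in fracture female3, below 13.04 to 15.1 in the others. *Col6a4* was at 0 CPM in fracture male3, below 0.290 to 0.709 in the others.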

How the results depend on the processing

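The number of chains called in fracture versus sham (1) was 5 with DESeq2, 0 with limma on log2(FPKM + 1) or log2(FPKM + 0.1), 0 without the sex covariate, and from 0 to 4 with 1 library left out (4 without sham female1, 2 without sham male1, 1 without sham female3 or fracture male1, and 0 in the other 8). In fracture plus PDX versus sham (1) it was 0 with either limma fit and with all 18 libraries in one fit, and from 0 to 2 with 1 library left out (2 without sham female1, 1 without sham female2, and 0 in the other 10). With a replicate block that joined the mice sharing sex and number, the count was 0 in both. The labels do not say whether mice of the same number shared anything else. The correlation of their deviations from the group means was between -0.12 and 0.14 over the 18 pairs of the 3 comparisons. Such low values cannot show that these mice shared nothing, and the count under the block says nothing of the size of an effect. Among all genes, DESeq2 and the block gave 1511 and 118 calls in place of 603 in fracture versus sham, 1620 and 486 in place of 925 in fracture plus PDX versus sham, and 330 and 19 in place of 61 between the sexes. In fracture versus sham the 2 limma fits called 437 and 427 of all genes, the fit without the sex covariate 621, and the fits with 1 library left out 213 to 710. In fracture plus PDX versus sham limma called 653 and 662, the fit of all 18 libraries 1087, and the fits with 1 library left out 498 to 1008. Females versus males gave 4 chains with DESeq2 in place of 0, and 0 with any 1 library left out. For fracture plus PDX versus fracture and the interactions the count was 0 in every setting run. Chains lower in fracture numbered 29 to 35 with 1 library left out and 30 to 33 in the other settings, beside 32. Of 42 fold changes followed through the settings none changed sign. The correlation of *Col1a1* and *Acta1* became -0.11 without the 2 farthest libraries. The *Col4a1* to *Col4a2* ratio, tested after its values were seen, fell by 0.13 to 0.16 on the log2 scale with any 1 library left out, and by 0.14 in FPKM. At this depth chains under 1 FPKM had a median SD of 0.43 on log2 CPM within groups, beside 0.22 for the others.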
